A study of Mus musculus with 234 samples.

Results

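Calcium handling in cardiomyocytes (CMs) was described through 10 genes: Ryr2, Atp2a2, Pln, Sln, Casq1, Casq2, Slc8a1, Hrc, Trdn and Atp2b4. They were found by name among the 55538 features of the count matrix, and all 10 were present. The list was chosen with earlier results of these counts known, so the members were selected on the same values that are given here, and their differences between groups are a description. In a heartbeat, calcium that enters a CM opens the ryanodine receptor of the sarcoplasmic reticulum, and the store empties into the cytosol. The pump SERCA2a then returns calcium to the store, while the exchanger NCX1 and pumps of the plasma membrane carry it out of the cell. Inside the store, calsequestrin binds calcium, with the cardiac isoform Casq2 usual in heart and the isoform Casq1 usual in fast skeletal muscle.

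The counts came from 234 single CMs of 5 mice, which were added up by mouse and fluorescence class into 8 sums. The control group held 24 CMs of mouse M26 and 9 CMs of mouse M73, which the labels give as strain C57BL/6. In the study's methods, controls are instead siblings of the homozygous mice that are wild-type or carry PGK-Cre or the floxed transgene without the other. The sample titles give both M26 and M73 as wt. Homozygous mice (strain PGKcre:BAG3P209L_homo) carried human BAG3 with the P209L mutation fused to eGFP, inserted at Rosa26 behind the CAG promoter and a floxed stop cassette that the ubiquitous PGK-Cre removes. By the study's definition, homozygous mice carry the floxed transgene on both alleles, with the cassette deleted on a single allele or on both. Their CMs were split by eGFP fluorescence into bright cells, 21 from mouse M25 and 59 from mouse M116, and dim cells, 18 from M25 and 50 from M116. The heterozygous mouse M72 (strain PGKcre:BAG3P209L_het) gave 27 cells labelled bright and 26 labelled dim. The transgenic line goes back to a single embryonic stem cell clone. Control and homozygous mice were 2 weeks old, whereas no age is given for M72. Atria were removed before the ventricles were minced, and CMs were picked by hand.

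The sums held between 4096609 and 40508124 counts, the smallest being that of control mouse M73. The labels name 4 plates in 2 numbered sets. M25 and M26 shared the plate of one set, M73 and M72 shared a plate of the other, and M116 lay on 2 further plates of that second set, so that M116 never shared a plate with a control mouse. The human BAG3 transgene stood at 0.446 and 0.58 normalized CPM (read counts scaled to the same library total) in the controls, 280 and 209 in bright and 10.4 and 91.1 in dim homozygous CMs. In M72 it was 110 in the cells labelled bright and 243 in those labelled dim, which goes against the labels. The 8 cardiomyocyte markers summed to between 77530 and 121002 normalized CPM, and none was at 0 in any sum. However, 3 of the 21 bright CMs of M25, with 7.07% of that sum's counts, held only 639 to 4816 CPM on these markers, against at least 49753 CPM in every other cell. A fibroblast list of 6 genes stood at 44924 CPM in 1 of the 3. Leaving out these 3 cells raised Ryr2 in that sum from 1019 to 1086, Atp2a2 from 4297 to 4543, Pln from 808 to 862 and Trdn from 634 to 676 normalized CPM, and the same 5 members did not overlap between bright and control CMs, 1 higher and 4 lower, where in the sums of all cells 24.6% and 14.3% of all genes were so.

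Casq1 and Casq2 are the pair of isoforms on which the description turns, and their promoters are shown because the same cells used them at very different levels. RefSeq (GRCm38.p6) places the windows, 250 bases before to 50 after the gene start, at chr1:172219846-172220145 on the minus strand for Casq1 and at chr3:102086165-102086464 on the plus strand for Casq2. Capitals mark the E-box CANNTG, a pattern that is found at the same place on both strands, since its reverse complement is again CANNTG.
Casq1: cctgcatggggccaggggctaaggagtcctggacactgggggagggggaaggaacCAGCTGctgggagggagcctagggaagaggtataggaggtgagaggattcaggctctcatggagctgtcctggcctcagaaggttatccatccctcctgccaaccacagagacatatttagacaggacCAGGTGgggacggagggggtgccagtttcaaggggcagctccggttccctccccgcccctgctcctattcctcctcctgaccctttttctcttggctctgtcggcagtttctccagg
Casq2: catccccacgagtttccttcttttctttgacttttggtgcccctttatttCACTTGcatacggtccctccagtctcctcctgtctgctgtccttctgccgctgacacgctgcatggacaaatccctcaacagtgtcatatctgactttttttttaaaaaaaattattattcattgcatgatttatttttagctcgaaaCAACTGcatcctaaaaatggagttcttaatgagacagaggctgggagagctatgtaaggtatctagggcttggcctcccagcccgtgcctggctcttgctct
Both windows held 2 E-boxes. An E-box occurred in 72.3% of the 32851 promoter windows of this table, so its presence does not set these genes apart. The window of Casq1 was 60.3% G and C and that of Casq2 44.7%. The letters GATA, read on either strand, occurred 1 time in Casq1 and 2 times in Casq2, and in 57.9% of all windows. Of the 10 members 7 had a window.

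Per kilobase of exon, the scale on which genes can be compared, the median over the 8 sums was 895 normalized CPM for Atp2a2, 360 for Casq2 and 331 for Pln. It was 109 for Hrc, 78.1 for Trdn, 51.8 for Ryr2 and 19.3 for Slc8a1. Casq1 stood at 5.03 and Atp2b4, a plasma membrane calcium pump, at 0.284. Atp2a2 thus led the list, and Casq1 was far below its cardiac isoform. The value of Pln is less certain, since 59.6% of its exon bases overlap the gene model Gm47644 on the other strand, and the strand used in counting was not given. Sln, which encodes the SERCA inhibitor sarcolipin known from atria, had 0 counts in all 234 cells. A fixed limit of 3 cells, which is not an exact interval, corresponds to 1.28% of these cells. In the sums, the limit of 3 counts corresponded to 0.0741 to 0.732 CPM. Of the 5 atrial markers, Bmp10 and Sbk2 were at 0 in every sum as well, Myl7 reached at most 3.74 and Myl4 6.9 normalized CPM, and Nppa ranged from 0.608 to 424 normalized CPM, with the highest value in dim CMs of M25.

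**Figure D1:**
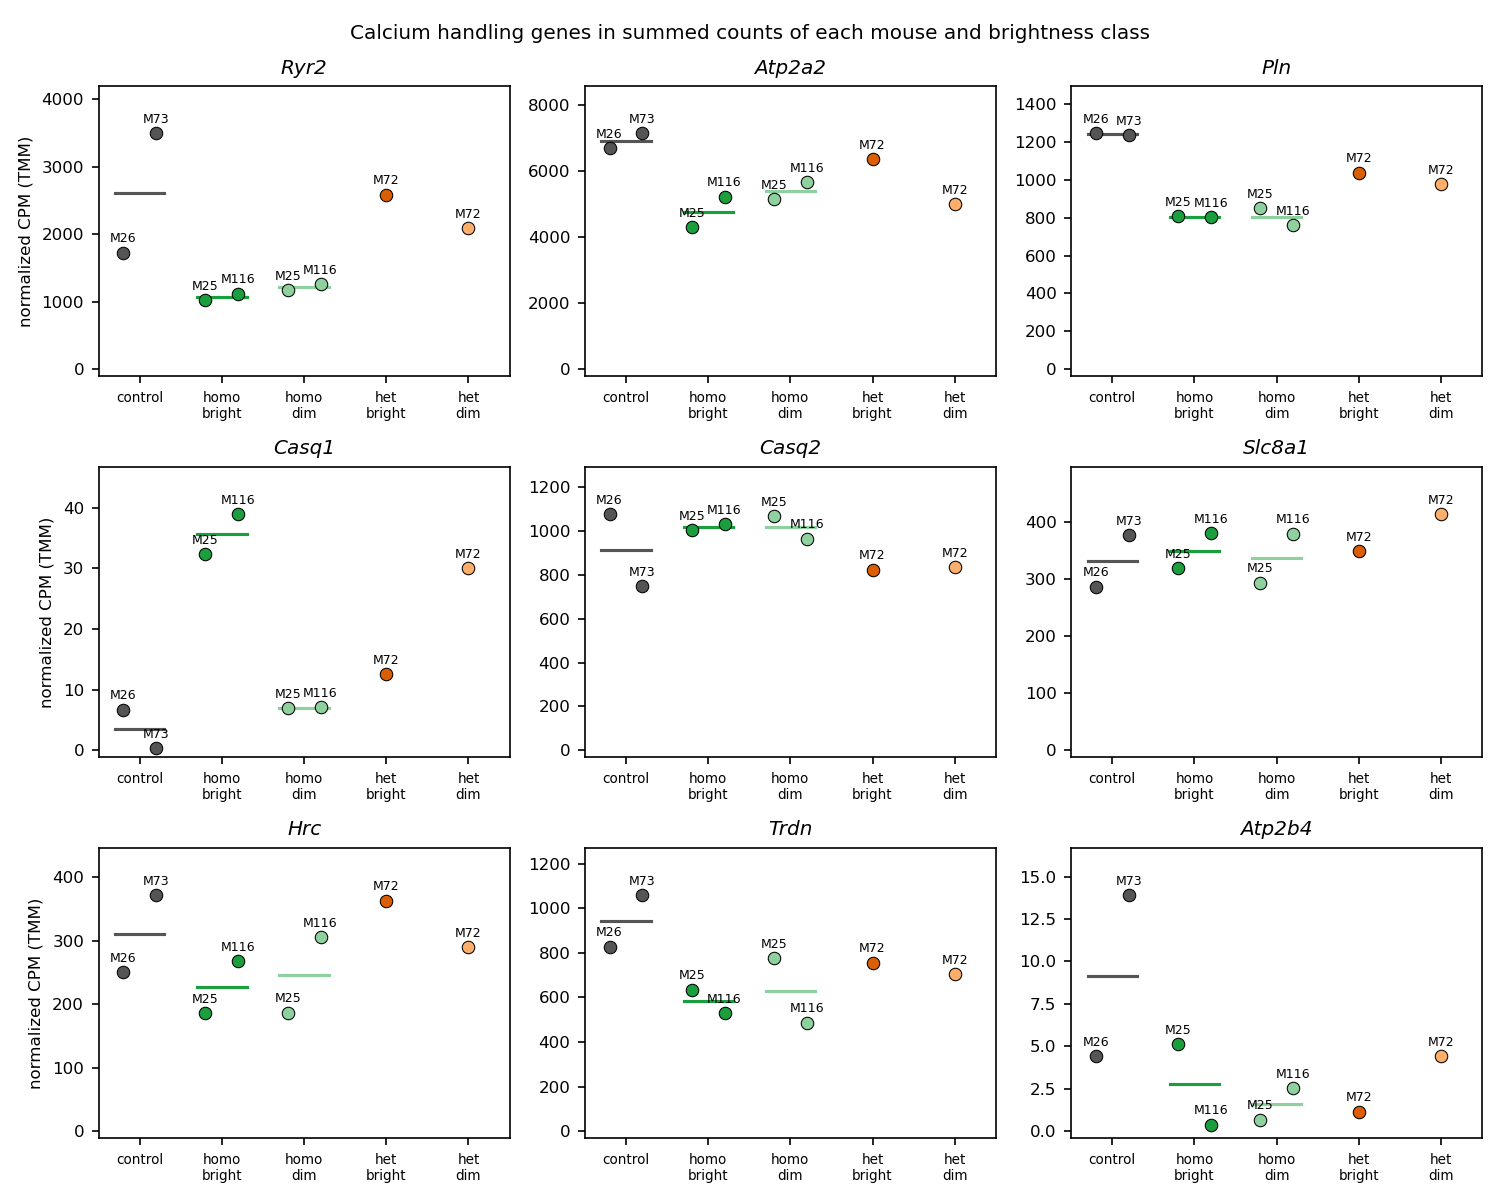
Normalized CPM (y axis, from 0) of 9 members in the 8 sums, 1 point for each mouse and brightness class, with a line at the mean of 2 mice. On this scale (TMM), Ryr2, Atp2a2, Pln and Trdn lie lower in all 4 homozygous sums than in both controls, of which only Ryr2 and Pln do so on plain CPM, while Casq1 lies highest in bright homozygous CMs and in the cells of M72 labelled dim.

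Ryr2 encodes the release channel of the store. Its normalized CPM was 1728 in M26 and 3498 in M73, against 1019 and 1121 in bright and 1175 and 1256 in dim CMs of M25 and M116. All 4 homozygous values lay below both controls, although the controls differed from each other more than any homozygous sum did from M26. The log2 fold change was -1.32 (SE 0.40) for bright and -1.12 (SE 0.40) for dim CMs against control. Control mouse M73 decided its size: without M73 these were -0.68 and -0.51, and without M26 -1.75 and -1.54. Within the plate sets, the bright over control fold was 0.589 for M25 over M26 and 0.32 for M116 over M73. Mouse M72 stood between the controls, at 2586 in the cells labelled bright and 2094 in those labelled dim.

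The highest levels of Ryr2 stood in the sums with the highest share of counts on mitochondrially encoded genes. That share was 21.9% in M73, 17.4% and 16.8% in the sums of M72, 10.9% in M26 and 9.54% to 11.6% in the homozygous sums. The 3 sums with the highest share were also the 3 with the highest Ryr2, but below these the order did not follow it: M26, with 10.9%, had more Ryr2 than the dim CMs of M116, with 11.6%. The same 3 sums, of M73 and M72, shared 1 plate. They also had the lowest median counts per cell, 498819, 541665 and 564648, against 697706 or more in the other sums. Mitochondrial share, plate and depth thus cannot be told apart for Ryr2. With mitochondrially encoded genes left out of the fit, the log2 fold change of Ryr2 was -1.30 for bright CMs against control. That fit changes the library totals only and cannot show what the share has to do with Ryr2. The part of the mitochondrial share, the plate or the depth in the difference was not tested.

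Trdn encodes triadin, which holds calsequestrin close to the release channel. It stood at 828 and 1058 normalized CPM in the controls, at 634 and 530 in bright and at 775 and 486 in dim CMs. The log2 fold change was -0.72 (SE 0.29) for bright and -0.60 (SE 0.35) for dim CMs. Scaled by library size alone it was -0.39 (SE 0.29) and -0.31 (SE 0.34), and with equal weight for each cell -0.25 and -0.12. The homozygous values were all lower, but dim CMs of M25 reached 0.937 of M26 and those of M116 only 0.459 of M73. In M72, Trdn was 756 and 704 in the cells labelled bright and dim.

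Hrc encodes a histidine-rich calcium-binding protein of the store. It was 251 and 372 normalized CPM in the controls, 186 and 268 in bright and 187 and 306 in dim CMs. The groups overlapped, since M116 lay above M26, while within each plate set the homozygous mouse was lower, with folds of 0.74 and 0.722 for bright CMs. The log2 fold change was -0.48 (SE 0.36) for bright CMs and -0.35 (SE 0.39) for dim CMs. Scaled by library size alone it was -0.13 (SE 0.36) and -0.04 (SE 0.39). On plain CPM, without TMM factors, dim CMs of M116 stood at 335, above M73 at 313. In dim CMs the lower level within that plate set thus rested on the scaling.

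Atp2a2 encodes SERCA2a, the pump that refills the store. It stood at 6678 and 7139 normalized CPM in the controls, at 4297 and 5221 in bright and at 5137 and 5658 in dim CMs. The groups did not overlap, and the log2 fold change was -0.56 (SE 0.26) for bright and -0.37 (SE 0.30) for dim CMs. This separation rested on the scaling. On plain CPM, without TMM factors, Atp2a2 was 6111 and 6010 in the controls, 4508 and 5809 in bright and 5318 and 6183 in dim CMs, so that dim CMs of M116 lay above both controls. Scaled by library size alone, its log2 fold change was -0.23 (SE 0.31) for bright and -0.07 (SE 0.32) for dim CMs. On plain CPM Trdn overlapped in dim CMs too, whereas Ryr2 and Pln were lower in all 4 homozygous sums. Casq1 and Casq2 were higher in all 4, and Slc8a1 was higher in both bright sums. With library size alone, 67.3% of all genes had a higher level in bright and 66.4% in dim CMs against control. The share of all genes without overlap was not counted on this scale. Pln encodes phospholamban, the inhibitor of this pump. It was 1246 and 1236 normalized CPM in the controls, 808 and 803 in bright and 851 and 760 in dim CMs. The controls thus lay close together and above every homozygous sum, with a log2 fold change of -0.65 (SE 0.25) for bright and -0.64 (SE 0.28) for dim CMs. Scaled by library size alone it was -0.32 (SE 0.28) and -0.35 (SE 0.29). In M72 the values of Pln lay between, at 1037 and 977.

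The ratio of Pln to Atp2a2, which does not depend on scaling, was 0.18 ± 0.00949 in controls, 0.171 ± 0.0241 in bright and 0.15 ± 0.0221 in dim CMs (SD, n = 2 mice). By mouse it was 0.187 and 0.173 in M26 and M73, 0.188 and 0.154 in bright and 0.166 and 0.134 in dim CMs of M25 and M116. Both dim sums thus lay below both controls, while the bright sums lay on either side of them. Slc8a1 encodes NCX1, the exchanger that moves calcium out across the plasma membrane. It was 287 and 377 normalized CPM in the controls, 319 and 381 in bright and 294 and 380 in dim CMs. The sums of M73 and M116, of one plate set, thus lay above those of M26 and M25, of the other, and within each set control and homozygous sums were close. Its log2 fold change was 0.05 (SE 0.31) for bright and 0.00 (SE 0.33) for dim CMs. Scaled by library size alone it was 0.39 (SE 0.31) and 0.31 (SE 0.33), beside medians of 0.41 and 0.38 over all genes. Relative to Atp2a2, Slc8a1 counted 0.043 and 0.0528 in the controls, 0.0742 and 0.073 in bright and 0.0573 and 0.0672 in dim CMs. This ratio was higher in all 4 homozygous sums than in the controls, and in M72 it was 0.055 and 0.083. How many other pairs of genes separate in this way was not counted.

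Atp2b4 gave few counts. It was 4.41 and 13.9 normalized CPM in the controls, 5.14 and 0.377 in bright and 0.683 and 2.55 in dim CMs. Single cells carried much of it: 1 cell held 93.7% of the counts in M26 and 89.6% in M73, and in the cells of M72 labelled bright all counts were of 1 cell. Without that cell the controls stood at 0.273 and 1.35 CPM, and no direction is read from this gene.

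Beside these members, the summed level of the 8 cardiomyocyte markers was lower in homozygous CMs, although singly only 3 of the 8 (Tnnt2, Tnni3 and Myl2) were lower in all 4 homozygous sums than in both controls. The summed level was 109023 and 121002 normalized CPM in the controls, 86708 and 77530 in bright and 93170 and 78345 in dim CMs, a log2 difference of -0.49 and -0.43. Per 1000 marker counts, Atp2a2 counted 61.3 and 59 in the controls, 49.6 and 67.3 in bright and 55.1 and 72.2 in dim CMs. On this scale Atp2a2 no longer separated the groups, and its log2 difference from control was -0.06 in bright and 0.07 in dim CMs. That of Hrc was 0.03 and 0.08, and that of Pln -0.14 in bright CMs, with overlapping groups. Ryr2 and Trdn were still lower in both bright sums, with -0.72 and -0.21, where 5.38% of all genes tested were lower without overlap. In dim CMs Ryr2 (-0.59) and Trdn (-0.18) overlapped with the controls. Pln (-0.20) and Atp2b4 (-2.14, from few counts) were lower there, where 5.95% of all genes were so. Casq2 and Slc8a1 were higher in all 4 homozygous sums than in both controls, with 0.67 and 0.57 for bright and 0.60 and 0.45 for dim CMs. Casq1, with a single count in M73, was so too, with 5.16 for bright and 2.75 for dim CMs. However, on this scale 40.6% of all genes in bright and 37.1% in dim CMs were higher without overlap, and the median over all genes with counts in each sum compared was 0.56 and 0.49, so that Casq2 and Slc8a1 lay near the middle of all genes. Whether the members or the markers moved cannot be told apart from relative counts.

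**Figure D2:**
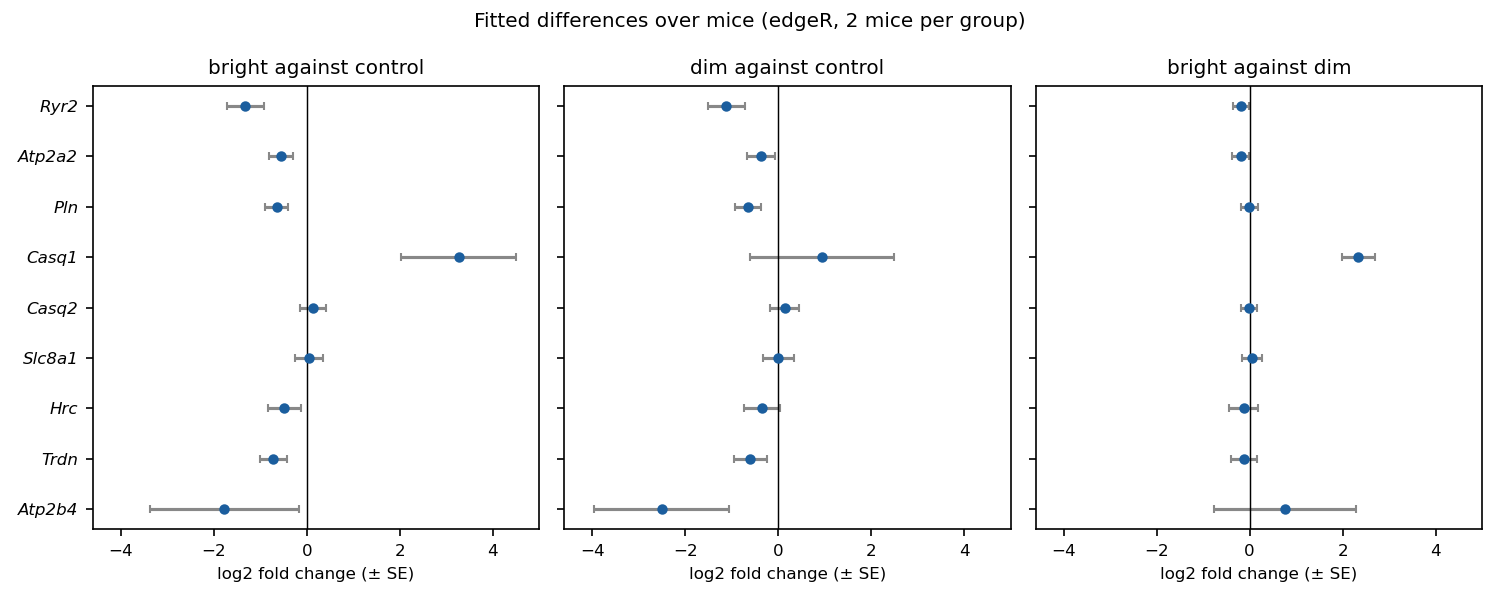
Log2 fold change (x axis, points) with its SE (bars) of 9 members in the 3 comparisons, fitted by edgeR over 2 mice per group. In bright CMs against control, Casq1 lies at 3.27 and Ryr2 at -1.32, and in bright against dim CMs every member apart from Casq1 and Atp2b4 lies within 0.19 of 0.

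Casq2, the calsequestrin of heart, had counts in 231 of the 234 cells. It was 1077 and 749 normalized CPM in the controls, 1003 and 1031 in bright, 1068 and 966 in dim CMs, and 824 and 835 in M72. The controls spanned all other sums, and the log2 fold change was 0.14 both for bright (SE 0.28) and for dim CMs (SE 0.31). Relative to Ryr2, Casq2 counted 0.623 and 0.214 in the controls, 0.985 and 0.92 in bright and 0.909 and 0.769 in dim CMs. This ratio was higher in each homozygous sum than in both controls, while M72 stood at 0.319 and 0.399, between the controls. Other pairs of genes were not counted here either.

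Casq1, the calsequestrin of fast skeletal muscle, showed the widest differences. Its normalized CPM was 6.7 in M26 and 0.29 in M73, against 32.3 and 38.9 in bright and 6.88 and 7.09 in dim CMs of M25 and M116. Both bright sums lay above all others of homozygous and control mice, and dim CMs were close to M26. Control mouse M73 held a single count, so that the ratio of CPM of bright CMs of M116 over it, 177, has a counting interval (95%, exact) of 31.7 to 6998. Bright CMs of M25 over M26, with 642 and 120 counts, gave 5.54 (4.55 to 6.79). Such intervals cover counting error only, because reads without molecular identifiers are not independent molecules. The log2 fold change was 3.27 (SE 1.24) for bright and 0.95 (SE 1.55) for dim CMs against control, and 2.34 (SE 0.36) for bright against dim CMs. Without M73, the values against control were 2.42 for bright and 0.06 for dim CMs, and without M26 they were 6.88 and 4.55.

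Relative to Casq2, Casq1 counted 0.0033 ± 0.00412 in controls, 0.035 ± 0.00384 in bright and 0.00689 ± 0.000635 in dim CMs (SD, n = 2 mice). Even in bright CMs, the skeletal isoform was thus a small fraction of the cardiac one. In M72 the ratio was 0.0152 in the cells labelled bright and 0.0359 in those labelled dim.

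Across the 8 sums, the 3 with the most Casq1 were also the 3 with the most human BAG3 transgene. These were the bright CMs of M116 and M25 and the cells of M72 labelled dim, with 38.9, 32.3 and 30 normalized CPM of Casq1 and 209, 280 and 243 of the transgene. Next came the cells of M72 labelled bright, with 12.5 and 110, and the dim CMs of M116, with 7.09 and 91.1. Below these, the dim CMs of M25 and control M26 had almost the same Casq1, 6.88 and 6.7, with 10.4 and 0.446 of the transgene. Over the cells of a class, Spearman's rho between Casq1 and the transgene had a median of 0.09 and ranged from -0.20 to 0.27 over 7 classes, with M73 left out for its number of cells, which at such sparse counts shows no relation.

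**Figure D3:**
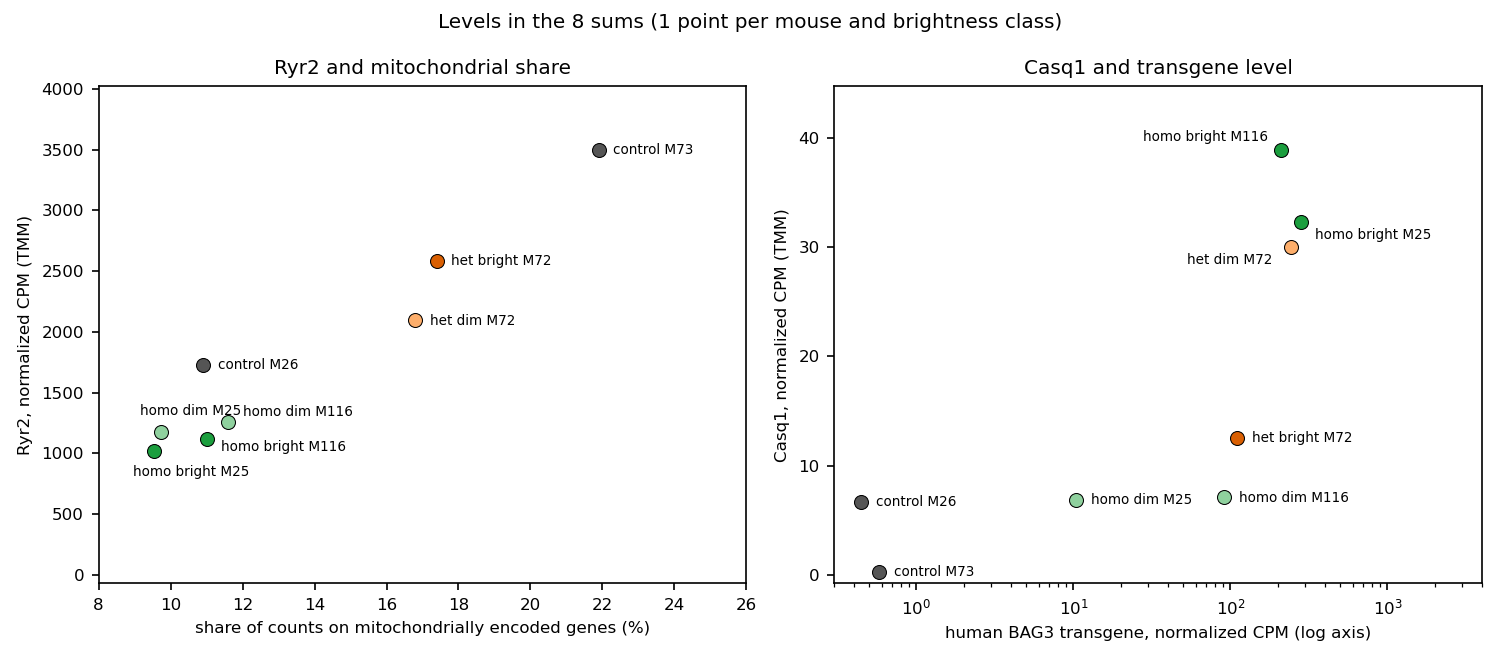
Left, Ryr2 (normalized CPM) against the share of counts on mitochondrially encoded genes (%). Right, Casq1 (normalized CPM) against the human BAG3 transgene (normalized CPM, log axis), with 1 point for each of the 8 sums. Control M73 and both sums of M72 have the highest mitochondrial share and the highest Ryr2, and they also share a plate and have the lowest median counts per cell. The 3 sums with the most transgene have the most Casq1, at 30 to 38.9.

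Casq1 was present in a minority of cells in every class. It was counted in 5 of 24 control CMs of M26 and 1 of 9 of M73, in 9 of 21 and 25 of 59 bright CMs, and in 5 of 18 and 9 of 50 dim CMs of M25 and M116. When each cell was thinned to 100000 counts, which left out 20 shallower cells, the share was 38.1% (95% exact interval 18.1 to 61.6) and 40.4% (27 to 54.9) in bright CMs. It was 16.7% (3.58 to 41.4) and 14.6% (6.07 to 27.8) in dim CMs. In controls it was 10% (1.23 to 31.7) in M26, and none of 8 cells of M73 (up to 36.9%). In M72 it was 26.1% and 33.3%, and unthinned shares were 42.9% and 42.4% in bright and 27.8% and 18% in dim CMs. Among cells with a count, the median level was 23.4 and 30.5 CPM in bright and 24.5 and 54.2 CPM in dim CMs, 15.7 CPM in the 5 cells of M26 and 1.57 CPM in the single cell of M73. Bright CMs thus had Casq1 in a larger share of cells, while the middle level of the cells with a count was not higher than in dim CMs, though above that of the few control cells, the highest cells being bright ones with 413 and 593 CPM.

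A few cells decided the size of the difference. In bright CMs of M25, 1 cell held 60.9% of the Casq1 counts, and without it the level was 14 CPM in place of 33.9. In M116 the leading bright cell held 22.4%, and without it 34.1 CPM remained of 43.2. With the leading cell of each class left out, dim CMs stood at 4.75 and 5.52 CPM and M26 at 2.63, so bright CMs of both mice were still higher. The leading cell of M25 also had 1357 CPM of the fibroblast list and 3069 CPM of the atrial list, beside 81346 CPM of cardiomyocyte markers. The leading bright cell of M116 had 5390 CPM of the smooth muscle and pericyte list, against 186 to 1610 CPM in the leading cells of the other classes, beside 78318 CPM of cardiomyocyte markers. In the whole bright sum of M25, Nppa made up 381 of the 385 normalized CPM of the atrial list, with Myl7, Bmp10 and Sbk2 at 0. In that of M116, Acta2 made up 1456 of the 1476 normalized CPM of the smooth muscle and pericyte list, with Myh11 at 0.0444 and Tagln at 0.0666. Each of these lists thus rested mainly on a single gene there and names no cell type. The part of these other markers in the Casq1 counts was not tested. In M116, whose cells lay on 2 plates, Casq1 was 38.4 and 48.2 CPM in bright and 4.99 and 11.8 CPM in dim CMs. Of 11 genes that define skeletal muscle, Tnnc2, Myh1, Myh2 and Atp2a1 were at 0 in all 8 sums, and the other 7 had between 1 and 495 counts over all sums, the most being those of Tnni2. The list summed to 3.28 and 1.89 normalized CPM in bright CMs of M25 and M116, 8.62 and 7.31 in dim CMs, 6.75 and 5.51 in controls, and 16.9 and 7.58 in the cells of M72 labelled bright and dim. The bright sums of M25 and M116 were thus the lowest on this list.

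**Figure D4:**
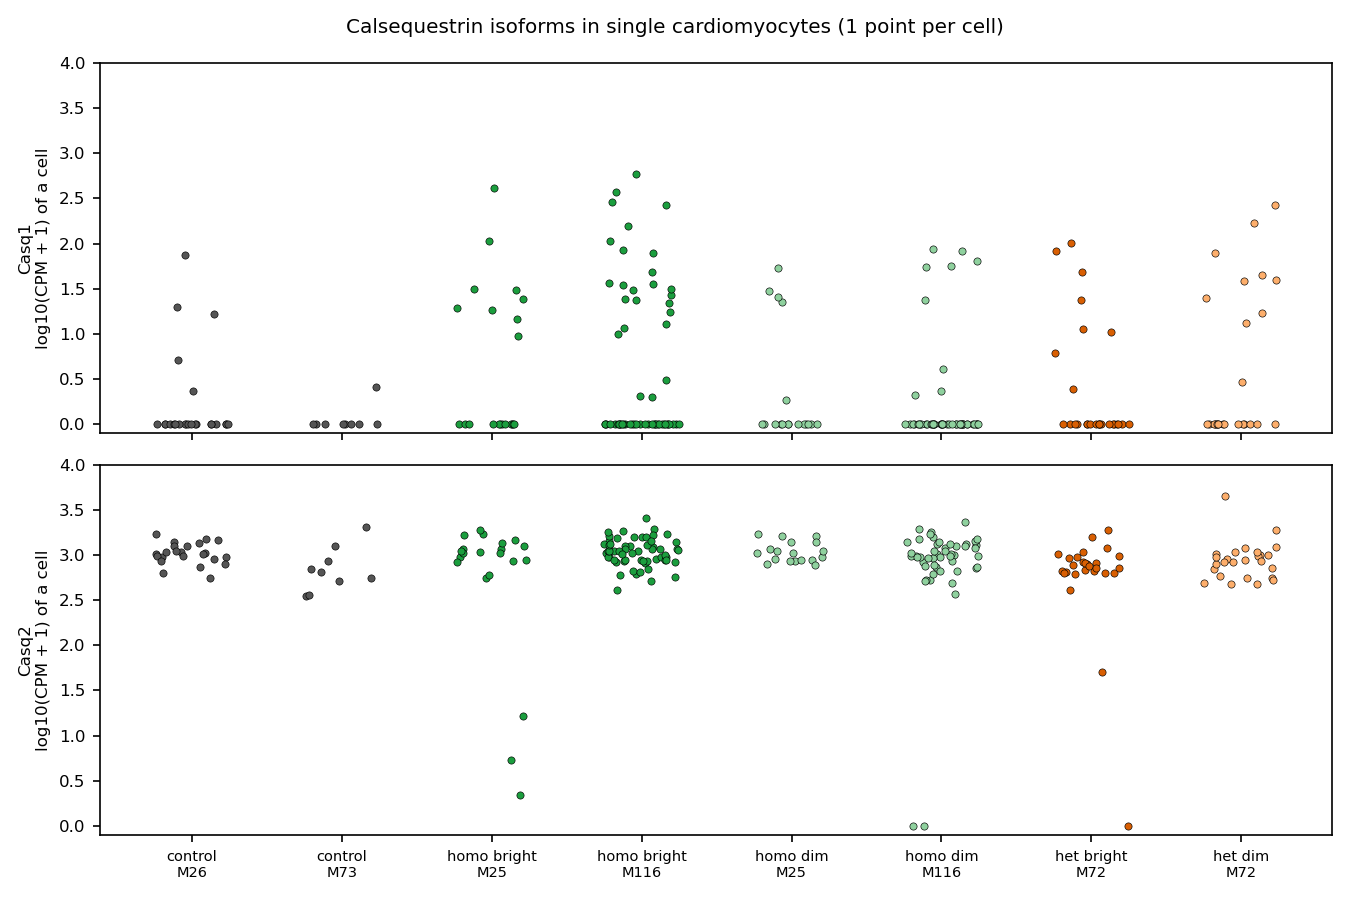
Casq1 (top) and Casq2 (bottom) in single CMs as log10(CPM + 1) on the y axis, 1 point per cell, by class and mouse. Casq2 lies near 3 in nearly all cells, while Casq1 is at 0 in most cells of every class and reaches 593 CPM in bright CMs of M116.

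Among the tested genes, the members' calls were read against those of all genes. The comparisons of bright and of dim CMs with control share the control mice. In bright CMs against control, 0 of 9 members tested passed an adjusted p of 0.05 in edgeR, where 0.0164% of 12203 genes did, and 0 in DESeq2, where 0.869% did. At an unadjusted p under 0.05 there were 4 (Ryr2, Pln, Casq1 and Trdn), against 6.55% of all genes. This number was 2 with library size alone, 2 without the cells low in cardiomyocyte markers and 1 with equal weight for each cell, and Pln and Trdn were not among them in any of these 3 fits. Groups did not overlap for 1 higher (Casq1) and 4 lower members (Ryr2, Atp2a2, Pln and Trdn), where 24.6% and 14.3% of all genes were so. The median log2 fold change of the members was -0.56, beside 0.11 over all genes. Scaled by library size alone, these medians were -0.23 and 0.41.

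In dim CMs against control, edgeR called 0 of 9 members, where 0% of 12195 genes passed, and DESeq2 called 0, where 0.451% did. At an unadjusted p there was 1 (Ryr2), against 6.22% of all genes. Groups did not overlap for 1 higher (Casq1) and 5 lower members (Ryr2, Atp2a2, Pln, Trdn and Atp2b4), where 24.1% and 13.7% of all genes were so. Without the leading cell of each class, Atp2b4 stood at 0.273 and 1.35 CPM in the controls and 0.286 and 1.37 CPM in dim CMs, so that its groups overlapped. The median log2 fold change was -0.37, beside 0.10 over all genes, and with library size alone -0.07, beside 0.38.

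Bright and dim CMs of the same homozygous mice were compared last. Here edgeR called 0 of 9, as it did for 0% of 13439 genes, and at an unadjusted p 1 (Casq1), against 4.12%. DESeq2 called Casq1 (adjusted p = 5.58e-05), where it called 0.662% of genes. In both mice, 2 members were higher in bright CMs (Casq1 and Slc8a1) and 3 lower (Ryr2, Atp2a2 and Hrc), where 25.8% and 25% of all genes were so. Without the 3 cells low in cardiomyocyte markers, Pln and Casq2 joined the higher ones and Hrc left the lower ones. The fitted log2 fold changes of Ryr2 and Atp2a2 were -0.19 (SE 0.17) and -0.19 (SE 0.18), those of Pln and Casq2 -0.01 (SE 0.18) and -0.01 (SE 0.17). With the mouse as a replicate block, the SE was smaller: Ryr2 was at -0.19 (SE 0.08) and Atp2a2 at -0.19 (SE 0.06), with an adjusted p of 1 for both in edgeR. At an unadjusted p under 0.05 there were then 2 members (Casq1 and Atp2a2, the latter with p = 0.0307 in edgeR), against 3.48% of all genes. The median was -0.01 for the members and for all genes.

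**Figure D5:**
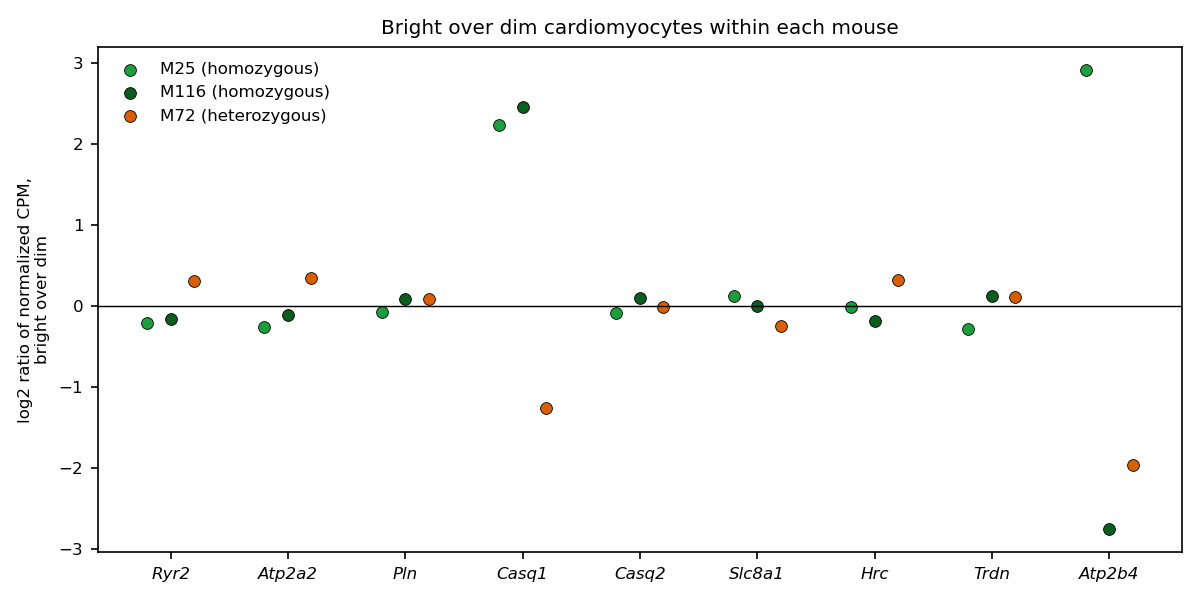
Log2 ratio of normalized CPM (y axis) of bright over dim CMs for 9 members within each mouse. Casq1 is at 2.23 and 2.45 in M25 and M116 and at -1.26 in the heterozygous mouse M72, and Atp2b4, with few counts, takes both signs among the homozygous mice.

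Levels of several members went together over cells of one class, which share a mouse but differ in depth and, in M116, also in plate. Spearman's rho between Ryr2 and Atp2a2 had a median of 0.35 over 7 classes (0.29 to 0.75), and that between Ryr2 and Trdn 0.29 (0.16 to 0.55), positive in all 7. Between Atp2a2 and Pln the median was 0.38 (0.03 to 0.47). Between Casq1 and Casq2 the median was -0.03 and the range -0.38 to 0.55. Ryr2 and Trdn also ran against the depth of a cell, with medians of -0.28 and -0.29.

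The wider calcium pathway was followed in 65 other genes, listed with earlier results known, of which 64 were found and 60 had counts. In bright CMs against control, 47 were tested, 23 higher and 24 lower, with a median log2 fold change of -0.01. None passed in edgeR or in DESeq2, and at an unadjusted p 1 was higher and 2 were lower, a share near the 6.55% of all genes, whose median was 0.11. The higher one was Calr, the store's calcium-binding chaperone calreticulin, at 107 and 98.9 normalized CPM in controls 313 and 142 in bright and 110 and 144 in dim CMs (log2 fold change 1.12, SE 0.45, for bright CMs). In bright CMs of M25, 3277 of its 6211 counts were in the cell with the high fibroblast list. Without the 3 cells low in cardiomyocyte markers that sum stood at 158, and the log2 fold change was 0.53 (SE 0.33), no longer past an unadjusted p of 0.05. The lower ones were Ppp1r3a, a targeting subunit of protein phosphatase, and Jph2, junctophilin, which ties the store to the plasma membrane. Jph2 was 97.2 and 144 in controls, 72 and 45.8 in bright and 66.4 and 52.1 in dim CMs (log2 fold change -1.06, SE 0.43, for bright CMs).

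In bright CMs against control, the largest fitted differences of the list had wide errors. Upward they were those of Bin1 (4.01, SE 1.83), Cacna1g (2.56, SE 1.48) and Camk2b (2.43, SE 1.84), and downward those of Orai1 (-2.21, SE 1.37), Mrln (-1.50, SE 1.51) and Itpr2 (-1.48, SE 1.71). These genes reached at most 64.1 normalized CPM in any sum. In dim CMs against control, 48 were tested, 25 higher and 23 lower, with none past the threshold in either tool and, at an unadjusted p, 1 higher (Slc8b1, at 0 counts in both controls) and 1 lower (Jph2), against 6.22% of all genes. In bright against dim CMs, 52 were tested, 22 higher and 30 lower, and none passed at an unadjusted p or in either tool after adjustment.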

How the data were processed

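Single CMs were sequenced with SMART-seq2, which uses no molecular identifiers. Per the study's methods, the authors aligned reads by STAR to a mouse reference that also held the human BAG3 and eGFP transcripts, and the deposited values are raw counts per gene from STAR's GeneCounts. The submitters' processing notes also name bcl2fastq. The genome build, the annotation and the strand setting are not given in the sources used here, so no gene positions are given for counts. Control strain is C57BL/6 in the labels, while the methods describe siblings on a mixed background.

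Counts of the 234 cells (487 to 1392253 each) were summed by mouse and brightness class. The mouse is the replicate, with n = 2 per group, and the heterozygous mouse has no replicate and was not tested. Doublets were not called, since cells were picked by hand, and 15 cells under 1000 genes were kept in the sums. Sums were compared with edgeR 4.0.16 (R 4.3.3; filterByExpr, TMM, quasi-likelihood test, Benjamini-Hochberg over all genes tested, threshold 0.05). Normalized CPM are counts scaled to the library total, with TMM factors over the 8 sums, with SD over mice. Levels per kilobase used exon lengths of GENCODE M21, which held 55009 of the 55397 distinct symbols. Intervals are exact (Clopper-Pearson, 95%). Bright and dim CMs come from the same mice M25 and M116, and over 13394 genes the differences between these mice correlated with r = 0.075 between the classes.

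The members, the pathway list and the tests were chosen with earlier results of these data known. All members are named. From the pathway list, genes at an unadjusted p under 0.05 and the 3 largest differences in each direction between bright CMs and control are named, and for Casq1 and Casq2 the 3 genes most alike over the 8 sums. Alternatives were DESeq2 1.42.0, other scaling, filters and cell sets, a block, all sums in 1 fit and leaving out each mouse. Those added after seeing the data left out mitochondrially encoded genes, cells low in cardiomyocyte markers (under 10000 CPM) or the leading cell, used plain CPM or scaled by the cardiomyocyte markers.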

Additional observations from a re-analysis of the deposited data

Results flagged for a closer look

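In 5 of the 9 members tested, the log2 ratio of bright over dim CMs had one sign in both homozygous mice and the opposite sign in the heterozygous mouse M72, as it had in 25.9% of all genes tested. For Casq1 it was -1.26 in M72, against 2.23 in M25 and 2.45 in M116. For Ryr2 it was 0.305, against -0.207 and -0.164, and for Atp2a2 0.348, against -0.257 and -0.116. For Hrc it was 0.322, against -0.0101 and -0.19, and for Slc8a1 -0.245, against 0.116 and 0.0029. Hrc and Slc8a1 thus lie close to 0 in one homozygous mouse each, and without the 3 cells low in cardiomyocyte markers Hrc no longer had one sign in both. These differences between genotypes were not tested, since M72 is a single mouse. In M72 the cells labelled dim also held more of the human BAG3 transgene than those labelled bright, with 243 and 110 normalized CPM, and its part in these ratios was not tested.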

How the results depend on the processing

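Of the 405 alternative values of the members' log2 fold changes, 346 moved by less than 1 SD between mice. In bright CMs against control, over 14 fits, each member kept its sign except Casq2 (1 fit) and Slc8a1 (2 fits). In dim CMs against control, signs turned for Casq2 (1), Hrc (1) and Slc8a1 (5), and in bright against dim CMs for Pln and Casq2 (9 each), Trdn, Hrc and Slc8a1 (2 each) and Atp2b4 (1). Scaling by the cardiomyocyte markers, which is outside these fits, also turned signs against control. Hrc was then at 0.03 in bright and 0.08 in dim CMs, and Atp2a2 at 0.07 in dim CMs. In bright CMs against control Ryr2 ranged from -1.75 to -0.68 and Casq1 from 2.42 to 6.88. Members past the threshold were 1 (Ryr2, adjusted p = 0.0096, range over its fits up to 1) without the filter on low counts in bright CMs against control, and 0 to 1 (Ryr2, 0.0402, without control mouse M26) in dim CMs against control when 1 mouse was left out. In bright against dim CMs, Casq1 passed with DESeq2 (5.58e-05) and without the filter (0.000904), 1 member each. For the other alternatives, members past the threshold stayed at 0.

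Over all genes, bright CMs against control had 2 past the threshold. There were 106 with DESeq2, 163 without the filter, 0 with equal weight for each cell, 5 with all 8 sums in 1 fit, 10 with the plate set as a block, and 0 to 41 when 1 mouse was left out. In dim CMs against control 0 passed, with 55, 58, 1 and 12 under DESeq2, no filter, all sums and the block, and 3 to 827 when 1 mouse was left out, 827 being without control mouse M26. In bright against dim CMs 0 passed, with 89 under DESeq2, 217 without the filter, 0 in the paired fit with the mouse as a replicate block, and 0 to 74 when 1 sum was left out. A group left with 1 mouse was assumed to vary like the other group. The causes were not tested. With 2 mice per group and 4096609 counts in M73, low members such as Casq1 and Atp2b4 are limited by depth and by single cells.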

Other observations

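Among 16615 genes, those whose log2 normalized CPM over the 8 sums were most like Casq1 were Rhbdf2 (Pearson's r = 0.983), Gm33989 (0.981) and Sesn3 (0.981). Most like Casq2 were Ncdn (0.989), Plpbp (0.983) and Arrdc4 (0.976). With 8 sums of 5 mice, which partly share mice and plates and differ in depth, and the best of so many genes taken, these values are a description only.

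In M116 the levels of some members differed between its 2 plates. Ryr2 in bright CMs was 1412 CPM on one plate and 1073 on the other, and in dim CMs 1580 and 1070. Atp2a2 was 5950 and 5660 CPM in bright and 6364 and 5920 in dim CMs. Pln was 789 and 1003 CPM in bright and 781 and 902 in dim CMs, and Slc8a1 463 and 383 in bright and 460 and 351 in dim CMs.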
